A study of Mus musculus with 4 samples.

Results

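Cd9, Folr4, Itpr1 and Oosp1 are 4 genes of the mouse egg, grouped here under fertilization and egg activation. The array carried 8 probes named for them among 41174 probes other than controls. These genes are 4 of 27962 gene names on the array. The probes were taken by the gene name in the scanner files, which gave 3 for Cd9, 1 for Folr4, 2 for Itpr1 and 2 for Oosp1, each printed as 1 spot. Of the 8, 6 had signals well above background in one of the channels on no fewer than 3 arrays, as had 8108 probes in all, and only these kept probes entered the main test. Mouse oocytes (strain, age and stage not given in the sources used here) were exposed to a hydrostatic pressure of 20 MPa for 60 min at 37 °C, and control oocytes were handled in the same way without pressure. Each of 4 arrays set 1 treated pool of 50 oocytes, in the red dye Cy5, against 1 control pool of 50, in the green dye Cy3. The design text calls the 4 replicates biological. Per the labels the dyes were not exchanged, so dye and treatment cannot be told apart.

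Fertilization in the mouse begins when a sperm passes the zona pellucida and its surface protein IZUMO1 binds JUNO on the egg membrane. JUNO is the product of the gene listed here as Folr4, whose current RefSeq symbol is Izumo1r, and the tetraspanin CD9 on the egg's microvilli is needed for the membranes to fuse. The sperm then delivers a phospholipase that makes inositol trisphosphate, which opens the receptor encoded by Itpr1 in the endoplasmic reticulum and releases the calcium waves that activate the egg. Oosp1 encodes a protein secreted by oocytes.

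The probe sequences are given below, and the gene beside each is the gene name it has on the array. The whole 60-base probe is given for Folr4, because it spans a splice junction, and the first 30 bases are given for the others. All are 5′ to 3′, and capitals mark the bases that the printed stretches of the Oosp1 probes share.
Folr4, A_52_P449580: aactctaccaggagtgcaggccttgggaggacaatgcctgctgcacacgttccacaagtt
Itpr1, A_51_P269663: aaactgaaccgtatgcagagttccgaagca
Itpr1, A_52_P118756: aatgagttagctgatggtttctagattttc
Cd9, A_51_P320852: cctgcaatgaaaggtactatatttgccaga
Cd9, A_51_P320626: gctgagttctttgtagactctatgcagttt
Cd9, A_51_P323341: aggtgctaatctgagcagttctactttgct
Oosp1, A_51_P205042: tacctagcttCATGGATCAAAACTTCTCGG
Oosp1, A_52_P195135: CATGGATCAAAACTTCTCGGttttccattt

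The files place the probes on mouse build mm7. The Folr4 probe lies at chr9:14737503-14738108 on the minus strand, a span of 606 bases for 60 bases of probe, which leaves a gap of 546 bases, and none of its 3 forward reading frames holds a stop codon. The Itpr1 probes lie at chr6:108645064-108645123 and chr6:108644742-108644801 on the plus strand, 322 bases apart, and both are assigned to the same mRNA. The Oosp1 probes, at chr19:11347806-11347865 and chr19:11347796-11347855 on the minus strand, overlap by 50 of 60 bases, so they are not independent measurements of the transcript. Of the Cd9 probes, A_51_P320852 is assigned to the mRNA, at chr6:125482335-125482394 on the minus strand. The other two come from cDNA clones. A_51_P320626 lies 16584 bases away on the same strand, at chr6:125498919-125498978, and A_51_P323341 lies 35697 bases away on the opposite strand, at chr6:125518032-125518091. Exon and UTR annotation of mm7 was not used here.

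No spot was saturated, and of 43379 spots other than controls 8309 to 10837 were well above background in the control channel and 7049 to 11155 in the treated channel. Replicate 1 stood apart. Its log2 ratios correlated with those of the other arrays at r = -0.19 to -0.15 across all probes, which are not independent replicates, against 0.086 to 0.29 among the other arrays. The 99th percentile of net signal (spot minus local background) of the treated channel, divided by that of the control channel, was 2.56 for replicate 1 and between 0.25 and 0.39 for the rest. Whether the dyes of replicate 1 follow its label cannot be settled from the files. Each mean of the 4 genes is therefore also given without replicate 1 and with the sign of its ratios turned, an alternative chosen after the data were seen, and the direction of every value of replicate 1 below rests on its label.

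The question was whether the transcripts of these genes differed between pressure-treated and control oocytes. None of the 6 kept probes passed limma's test at an adjusted p of 0.05, where 0% of the 8108 kept probes were called higher and 0% lower. Their lowest adjusted p from limma was 0.93 and their lowest unadjusted p was 0.097, and 4.00% of all kept probes had an unadjusted p under 0.05. Of the 5 kept probes with a value on every array, 0 had the same sign on all 4, against 12.2% of all kept probes with 4 values. The probes also had unlike spreads between arrays, given here as a description. After loess, Oosp1 and Folr4 stayed near equal levels in the pools of each array, Cd9 varied, and the Itpr1 probe A_51_P269663 varied more between arrays than nearly every other kept probe. Only part of this order held under other processing. With the scanner's processed signals the SD of Folr4 was 1.06 and that of Cd9, at 1.36, was near the median of kept probes, 1.31, whereas the SDs of Itpr1 were 3.43 and 4.67 and those of Oosp1 0.14 and 0.20. With median centring in place of loess, the SDs of Oosp1 were 1.53 and 1.66, above the median of 0.98, and that of A_51_P269663 was 3.11, exceeded by 0.185% of kept probes. A larger SD than that of A_51_P269663 was held by 4.28% of kept probes with processed signals and by 7.56% with scaling between arrays, where its SD was 1.63.

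**Figure D1:**
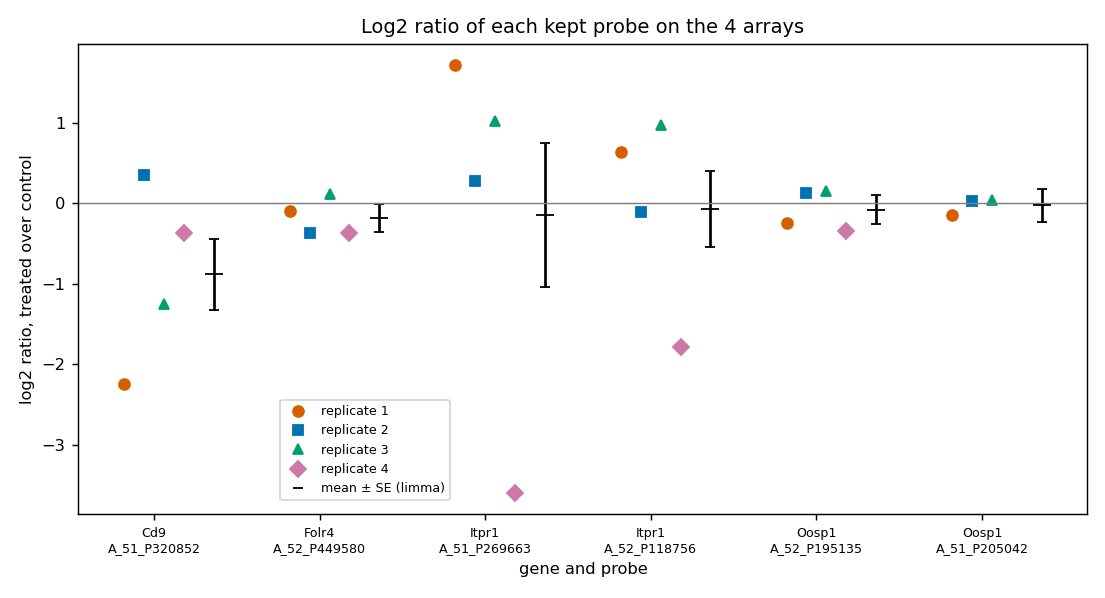
Log2 ratio of treated over control (vertical axis) for each of the 6 kept probes (horizontal axis), with 1 point for each array and, beside them, the mean ± SE from limma. The Itpr1 probe A_51_P269663 ran from -3.60 on replicate 4 to 1.71 on replicate 1, whereas the Oosp1 probe A_52_P195135 stayed between -0.35 and 0.14.

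Itpr1, the inositol trisphosphate receptor, had the widest values. For the probe A_51_P269663 the log2 level (one channel's intensity after background correction, loess and quantile normalization of average intensities between arrays) in control pools was 7.11, 7.92, 10.77 and 10.19 on replicates 1 to 4. In treated pools it was 8.82, 8.20, 11.79 and 6.58. The treated and control ranges overlapped.

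The log2 ratio of this probe was 1.71, 0.27, 1.02 and -3.60 on replicates 1 to 4, above 0 on 3 arrays and far below 0 on replicate 4. On replicate 4 the spot had a mean intensity of 2092 over a background of 25 in the control channel and of 54.2 over 35 in the treated channel, and the normalised level was 12.1-fold higher in the control pool. With so dim a treated spot the size is not settled, and the log2 ratio there was -5.40 with processed signals, -4.86 with median centring and -2.33 with scaling between arrays. Only 8 kept probes had a lower log2 ratio on that array. On replicate 1 the treated pool was 3.27-fold higher, and 132 kept probes (1.63%) lay above it there.

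The mean log2 ratio of A_51_P269663 was -0.15 ± 0.89 (SE, n = 4), with a 95% confidence interval of -2.38 to 2.08, or 0.193-fold to 4.22-fold, and an adjusted p from limma of 0.99. Replicate 4 set its sign. Without that array the mean was 1.002 (unadjusted p = 0.034, adjusted p = 0.997 by limma), and without replicate 1 it was -0.77, or -1.005 with that array turned. Scaling between arrays turned it to 0.11 and array weights to 0.18.

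The SD of its ratio over the arrays was 2.38, where the median over all kept probes was 0.52, and 7 kept probes (0.0863%) had a higher one. The spread was present within the controls. The SD of its control level was 1.76, with 0.814% of kept probes higher and a median of 0.51, and that of its treated level was 2.18, with 0.0617% higher and a median of 0.47. In pooled oocytes, fewer cells holding a transcript and less of it in each cell cannot be told apart.

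The other Itpr1 probe, A_52_P118756, gave the same picture on smaller signals. Its log2 ratio was 0.64, -0.11, 0.97 and -1.78 on replicates 1 to 4, the same sign as the first probe on 3 of 4 arrays. The exception was replicate 2, where its treated spot did not stand well above background, and neither did its treated spot on replicate 4 or its control spot on replicate 1. With a channel near background, the size of its ratio on these arrays is not settled. Both probes put the control pools of replicates 3 and 4 above those of replicates 1 and 2, with levels of 7.85 and 8.22 against 6.22 and 6.70 for A_52_P118756. Its mean was -0.07 ± 0.48 (SE, n = 4; adjusted p = 0.99 by limma). It was -0.31 without replicate 1, -0.39 with it turned and 0.50 without replicate 4.

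**Figure D2:**
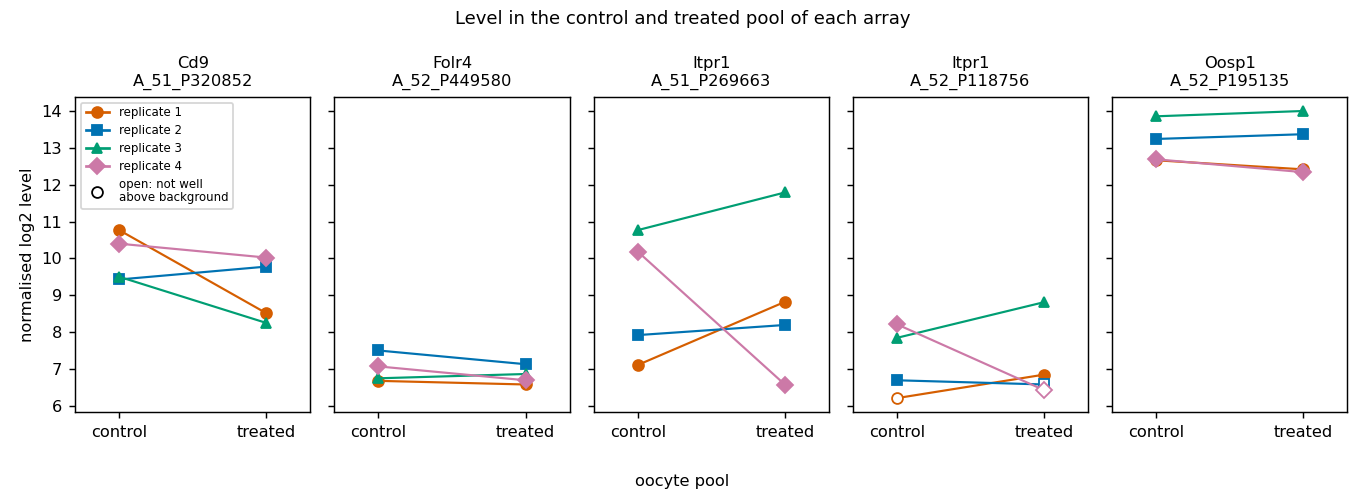
Normalised log2 level (vertical axis) of 5 probes in the control and the treated pool, with a line joining the pools of each array and open symbols where a spot was not well above background. Levels of different probes are not comparable. For Itpr1 the lines cross, with replicate 4 at 10.19 in the control and 6.58 in the treated pool, while the lines of Oosp1 are nearly flat.

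Cd9, the tetraspanin of gamete fusion, was lower in the treated pool on 3 of 4 arrays as labelled, replicate 1 among them, though the difference did not exceed the spread between arrays. The probe for its mRNA, A_51_P320852, had log2 levels of 10.77, 9.43, 9.504 and 10.40 in the control pools of replicates 1 to 4. In the treated pools they were 8.52, 9.78, 8.25 and 10.02. It was well above background in both channels on all 4 arrays, with net signals of 721 to 2879 in the control and 78.6 to 735 in the treated channel. The control and treated ranges overlapped.

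Its log2 ratio was -2.25, 0.35, -1.25 and -0.38 on replicates 1 to 4. Replicate 1 held the lowest value, under which lay 53 kept probes (0.655%). The mean was -0.88 ± 0.44 (SE, n = 4), or 1.84-fold higher in control pools, with a 95% confidence interval of -1.99 to 0.22 and an adjusted p from limma of 0.93. The SD over arrays was 1.12, and 9.82% of kept probes had a higher one. With replicate 1 turned the mean was 0.24, so its sign rests on the orientation of that array. Without replicate 1 it was -0.43, and without replicate 2 it was -1.29. Under median centring, where all kept probes had a median of -0.32, it was at -1.51, and scaling between arrays at -0.39.

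The clone-derived Cd9 probes were at background. A_51_P320626 and A_51_P323341 were not well above background in either channel on any array, with net signals of 10.3 to 12.8 and 10.1 to 16.9 in the control channel and at most 5.38 and 5.26 in the treated channel. They did not pass the filter, and no fold is given for them. The value of Cd9 therefore rests on 1 probe.

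Folr4, the egg receptor JUNO, had small log2 ratios after loess, but whether its levels in the pools were near equal is not settled. Its probe was well above background in both channels on all 4 arrays, on small signals, with net signals of 33.6 to 166 in the control and 14.1 to 43.8 in the treated channel. The treated net signals lay below the offset of 50 used in background correction. Such an offset makes the ratios of dim spots smaller, which limits the reading of the values after loess. The log2 level was 6.68, 7.51, 6.75 and 7.08 in control pools and 6.59, 7.14, 6.87 and 6.70 in treated pools of replicates 1 to 4. Those ranges overlapped.

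The log2 ratio of Folr4 was -0.10, -0.37, 0.12 and -0.38 on replicates 1 to 4. It was below 0 on 3 arrays, with an SD of 0.24 that 83.2% of kept probes exceeded. The mean was -0.18 ± 0.18 (SE, n = 4), with a 95% confidence interval of -0.62 to 0.26 and an adjusted p from limma of 0.93. The size was not settled. It was -0.35 with no background subtraction, -0.80 with the scanner's processed signals, -0.46 with median centring, -0.21 without replicate 1 and -0.13 with that array turned. With processed signals the log2 ratios of Folr4 were -0.07, -2.27, 0.01 and -0.87 on replicates 1 to 4. The SD of Folr4 was larger under other processing. It was 0.46 with no background subtraction, 0.56 with median centring and 1.06 with processed signals. The medians of kept probes there were 0.63, 0.98 and 1.31, each above it. With scaling between arrays its SD was 0.57, above the median of 0.50.

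Oosp1, the oocyte-secreted protein, was near equal in the pools of each array after loess. The probe A_52_P195135 had net signals of 5279, 12542, 20758 and 16207 in the control channel of replicates 1 to 4. In the treated channel they were 12112, 5858, 4861 and 3795. The treated channel was thus the brighter on replicate 1 and the dimmer on the others, as were the channels at the 99th percentile, and the difference was smaller after loess.

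After normalization the log2 ratio of this probe was -0.25, 0.13, 0.14 and -0.35 on replicates 1 to 4. The overlapping probe A_51_P205042 had -0.15, 0.02 and 0.04 on replicates 1 to 3, within 0.11 of its partner on each, and was left out on replicate 4 by an outlier flag. The probes had the same sign on 3 of 3 arrays, 1 below 0 and the others above.

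The mean was -0.08 ± 0.18 (SE, n = 4; adjusted p = 0.96 by limma) for A_52_P195135, with a 95% confidence interval of -0.53 to 0.37, or 0.693-fold to 1.29-fold. For A_51_P205042 it was -0.03 ± 0.20 (SE, n = 3; adjusted p = 0.99 by limma). The SDs over arrays were 0.25 and 0.10, exceeded by 81.2% and 96.7% of kept probes. The SD of 0.10 is over 3 arrays, without replicate 4, where A_52_P195135 had its lowest log2 ratio, -0.35. The levels themselves varied between pools of a kind, from 12.66 to 13.85 in control and 12.34 to 14.00 in treated pools for A_52_P195135. The sign of both means is not settled. For A_52_P195135 it was -0.03 without replicate 1, 0.01 without replicate 4 and -0.87 with median centring, under which its log2 ratios were 1.15, -0.51, -2.04 and -2.05. A_51_P205042 was at 0.03 without replicate 1. With replicate 1 turned they were at 0.04 and 0.07. With the scanner's processed signals both probes were below 0 on every array with a value, at -0.43, -0.61, -0.28 and -0.75 on replicates 1 to 4 for A_52_P195135 and -0.24, -0.52 and -0.40 on replicates 1 to 3 for A_51_P205042, with means of -0.52 and -0.39.

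**Figure D3:**
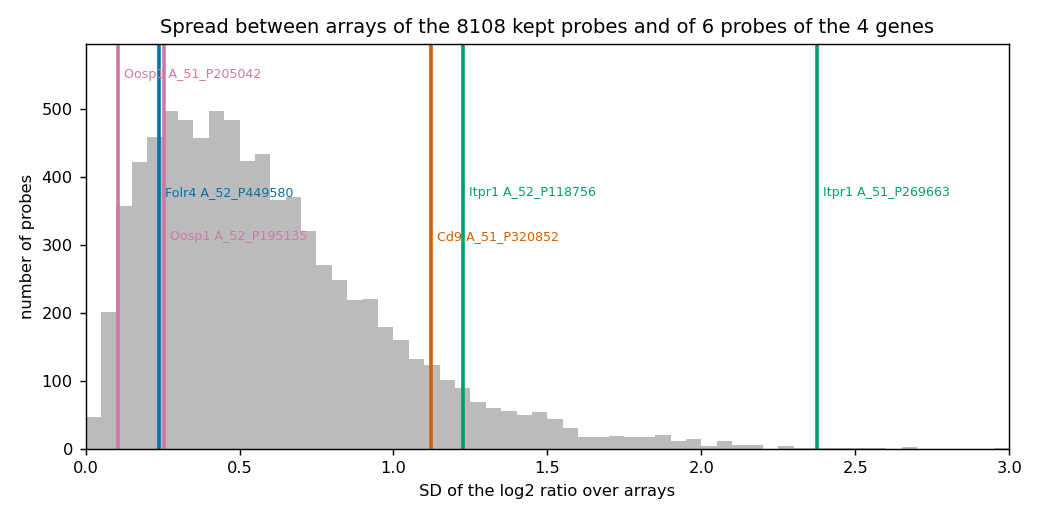
Histogram of the SD of the log2 ratio over arrays (horizontal axis) for the 8108 kept probes (vertical axis, number of probes), with vertical lines for 6 probes of the 4 genes. Oosp1 and Folr4 lie at 0.10 to 0.25, Cd9 at 1.12 and the Itpr1 probes at 1.23 and 2.38. The value of 0.10, of Oosp1 A_51_P205042, is over 3 arrays.

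The genes with the most similar pattern were sought among 6001 other genes by the root mean square difference in log2 ratio over the 4 arrays. For Itpr1 they were Dock5, at 0.37, and Golga4, a golgin of the Golgi apparatus, at 0.44. On replicate 4 they had log2 ratios of -3.39 and -3.28. That these lie near the value of Itpr1 follows from the choice, which used that array. No gene came within 0.25 of Itpr1, whereas 464 did for Oosp1, 289 for Folr4 and 2 for Cd9. Such a count depends on the size of a gene's own ratios, so it does not measure how widely its pattern is shared. The nearest to Cd9 were Pigs (0.22) and Fam20b (0.23), to Folr4 Rpl35 (0.067) and Med22 (0.077), and to Oosp1 Fam32a (0.033) and Slc30a4 (0.045). With only 4 arrays to compare, these are descriptions.

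Other genes of fertilization and activation were taken from lists by role, each gene by its brightest kept probe, and 0 of them were called higher and 0 lower (0% of all kept probes either way). The median log2 ratio over all kept probes was -0.02, with 3866 means above 0 and 4242 below. The counts of direction in the lists are to be read beside this split, and no list was tested as a set. For the egg surface and gamete fusion list, 10 of 21 genes on the array were kept, with a median of -0.07 and 7 below 0. The integrin subunit Itga9 had -0.16, -0.31, -0.55 and -0.54 on replicates 1 to 4, below 0 on all 4 (9.18% of kept probes with 4 values were), and a mean of -0.39 ± 0.17 (SE, n = 4; adjusted p = 0.93 by limma). Piga, which acts in the first step of making the glycolipid anchor that JUNO also carries, had a mean of -0.54 ± 0.28, which was -0.30 without replicate 2 and -1.17 with scaling between arrays. Cd81, the tetraspanin related to Cd9, had -1.12, 0.32, 0.45 and 0.32 on replicates 1 to 4.

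Genes of calcium release, stores and entry had 17 of 31 kept, a median of 0.10 and 12 above 0. Plcg2, a phospholipase that makes inositol trisphosphate, had a mean log2 ratio of 0.53 ± 0.27, and Stim2, a sensor of the calcium store, 0.33 ± 0.24 (SE, n = 4; adjusted p = 0.93 for both by limma). Plcg2 was at 0.24 without replicate 3. Stim2 was at 0.09 without replicate 1, -0.19 with it turned and 1.78 with processed signals. The other receptors of Itpr1's family stood nearer 0 on replicate 4 than Itpr1. Itpr2 had -1.43, 0.12, 0.18 and 0.41 on replicates 1 to 4, and Itpr3 had 1.12, 0.96, -0.55 and -1.13. The difference between the family members was not tested.

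Genes of the calcium response and meiotic exit had 13 of 22 kept, a median of -0.14 and 9 below 0. Camk2d, a calcium- and calmodulin-dependent kinase, had a mean of 0.58 ± 0.25, and Marcks, a membrane protein that kinase C releases, had -0.61 ± 0.27 and was below 0 on all 4 arrays (SE, n = 4; adjusted p = 0.93 for both by limma). Camk2d was at 0.38 without replicate 3, 0.16 with replicate 1 turned, 0.066 with median centring and 2.11 with processed signals, and Marcks at -0.32 without replicate 4. Fbxo43, the inhibitor that holds the egg at metaphase, was not kept.

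For cortical granule exocytosis, by which the egg blocks further sperm, 11 of 19 genes were kept, with a median of -0.08 and 6 below 0. Syt1, a calcium sensor of exocytosis, had no treated spot well above background. Its mean log2 ratio was -0.68 (adjusted p = 0.93 by limma), a value that ran from -3.21 with processed signals to -0.14 with replicate 1 turned, so no bound on the fold is given. Nsf, which takes fusion complexes apart, had a mean of -0.49 ± 0.34 (SE, n = 4), and of -0.22 without replicate 2. Of the relatives of Oosp1, Oosp3 was the 1 kept gene of 2 on the array, with 1.18, -1.11, -0.93 and -0.78 on replicates 1 to 4 and a mean of -0.41 ± 0.42 (SE, n = 4; adjusted p = 0.93 by limma). Without replicate 1 the mean was -0.94 (unadjusted p = 0.0045, adjusted p = 0.21 by limma), with it turned -1.0002 (adjusted p = 0.059 by limma) and without replicate 2 -0.18.

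The label of oocytes was checked against markers. Of 13 oocyte markers on the array 9 were kept, among them Gdf9, Bmp15, Zp3, Zar1 and Dppa3, whereas Figla, Mos, Nlrp5 and Zp2 were not. The median log2 ratio of the 9 was 0.05. Of 19 cumulus and granulosa markers 7 were kept (Cyp19a1, Inha, Ptgs2, Tnfaip6, Hsd3b1, Nr5a2 and Hsd17b1), with a median of -0.07 and a summed level of 1327 to 2901 in control and 1083 to 3831 in treated pools, and Fshr, Lhcgr, Foxl2 and Amh were not kept. Of 11 blood and immune markers 3 were kept (Srgn, Hba-a1 and Fcer1g), each well above background in both channels on all 4 arrays, with a median of 0.18 and a summed level of 1915 to 3796 in control and 1536 to 2620 in treated pools, and Ptprc was not. Srgn went against that median, with log2 ratios of -0.55, -0.38, -0.53 and -0.61 on replicates 1 to 4 (unadjusted p = 0.019, adjusted p = 0.93 by limma). Of 16 sperm markers 3 were kept (Prm1, Acr and Acrbp), the first pair well above background in both channels on all 4 arrays, with a median of 0.13 and a summed level of 254 to 507 in control and 254 to 654 in treated pools, and Izumo1 and Plcz1 were not. The part of these cells in the values above was not tested.

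**Figure D4:**
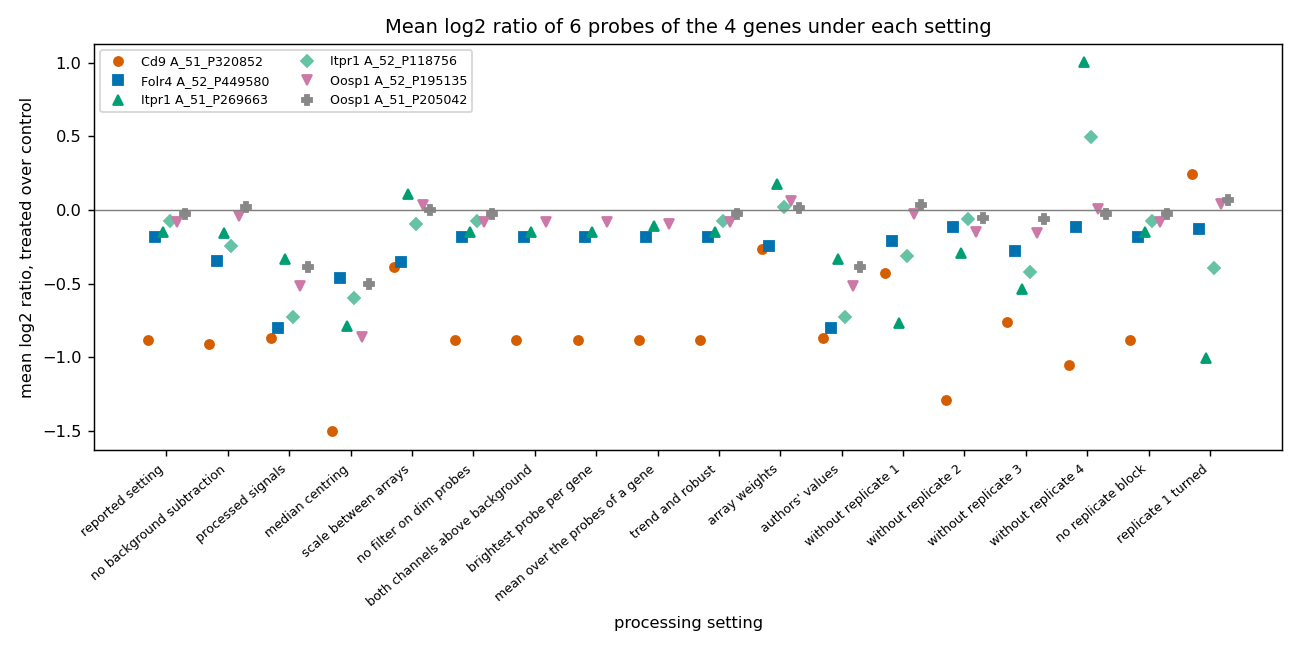
Mean log2 ratio of treated over control (vertical axis) of 6 probes of the 4 genes under the reported processing and 17 alternatives (horizontal axis), of which 14 gave a value for Itpr1 A_52_P118756 and for Oosp1 A_51_P205042. Cd9 runs from -1.51 to 0.24 and is above 0 only with replicate 1 turned, Folr4 from -0.80 to -0.12, and the Itpr1 probe A_51_P269663 from -1.005 to 1.002.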

How the data were processed

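Per the labels' protocols, 240 pg of total RNA from each pool went through 2 amplification rounds before dye labelling. For each spot the deposited scanner files hold a mean intensity and a median local background intensity per channel, as Agilent Feature Extraction 9.5.1.1 gave them, a version the submitters' processing notes name. Per the file headers, they also hold processed intensity values and a log10 ratio, which is red over green. The authors' deposited table repeats this log10 ratio (largest difference 5e-10, median 0 on each array). From these, intensities were corrected by normexp (offset 50) and loess in limma (version 3.58.1, R 4.3.3), with control spots at weight 0. Spots with outlier flags were dropped and those of a probe averaged. A probe was kept where one channel stood well above background on 3 or 4 arrays. The log2 ratio was tested against 0 by lmFit and eBayes over 8108 probes, with Benjamini-Hochberg adjustment. Symbols were updated through a RefSeq table of GRCm38.p6, used for names only, in which 22951 probes matched by accession, 124 by another accession and 9659 by symbol or synonym, and 8440 did not.

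Genes and lists were chosen with earlier results of these data known. Beside every probe of the 4 genes, the text names 2 genes per list, those of smallest p, and the 2 nearest in pattern. Cd81, Itpr2, Itpr3, Fbxo43, Erp44, H1f8 and the markers were named outside that rule, after their values were seen. The fit was checked on simulated log2 ratios of the 8108 probes, with 200 changed. Changes of 1 on the log2 scale were recovered in 0% and changes of 2 in 67.2% of cases. The simulated arrays were independent of one another. The log2 ratios of the real arrays were correlated across probes, as given above, so these shares may not hold for them. Alternatives covered background, normalization, filter, probes of a gene, eBayes, array weights, the authors' values, pairing, leaving out each array and, added after the data were seen, turning the sign of replicate 1.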

Additional observations from a re-analysis of the deposited data

Results flagged for a closer look

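Among 47 sets of values over the 4 arrays, 4 held a value standing far from the rest. About 5% of independent sets would by chance, but these sets were not independent, as list medians rest on genes also tested. The outlying values were all of replicate 1. None of them was a value of Cd9, Folr4, Itpr1 or Oosp1. Oosp3, the relative of Oosp1, had a log2 ratio of 1.18 on replicate 1, against -1.11 to -0.78 on the others. As the only kept gene of its list it gave the list's median on replicate 1, 1.18, as well. Hsd17b1, a granulosa cell enzyme with no treated spot well above background, had values of -0.19 to -0.07 on replicates 2 to 4 and -2.26 on replicate 1. Acr, a protease of the sperm acrosome, had -0.99 on replicate 1 against 0.62 to 0.81.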

How the results depend on the processing

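Under 17 alternatives, of which turning the sign of replicate 1 was chosen after the data were seen, 0 probes passed. This held among the 4 genes, the other genes of fertilization and activation and all probes. By limma, 141 to 1054 probes had an unadjusted p under 0.05, but the number tested differed. The 1054 were of 41174 probes, with no filter on dim probes. Of 8108 probes, the largest counts were 1042 with replicate 1 turned, 952 with array weights and 828 without replicate 1. The reported test had 324 of 8108. Limma's smallest adjusted p over the alternatives, 0.059, came from the fit that turned replicate 1, and leaving that array out gave 0.19. The pools of an array are paired in the reported test, and without that pairing (no replicate block) 0 probes passed. Leaving out 1 array gave 0 probes each time. The mean of Folr4 kept its sign under all 17. That of Cd9 A_51_P320852 kept it under all of them except with replicate 1 turned, where it was 0.24. Of the 9 list genes named by the rule, 8 kept their sign under each alternative that gave a value, and Stim2 was at -0.19 with replicate 1 turned. For Plcg2, Stim2, Camk2d and Syt1 the filter on both channels gave no value. Changes of sign among these means came to 15 in all. With replicate 1 turned Oosp1 A_51_P205042 was at 0.070 and A_52_P195135 at 0.043. Leaving out 1 array gave -0.77 to 1.002 for Itpr1 A_51_P269663 and -0.42 to 0.50 for A_52_P118756, above 0 without replicate 4. It gave -0.16 to 0.0088 for Oosp1 A_52_P195135, above 0 without replicate 4, and -0.064 to 0.031 for A_51_P205042, above 0 without replicate 1. Scaling between arrays gave 0.11 for A_51_P269663 and 0.030 for A_52_P195135. Array weights gave 0.18 for A_51_P269663, 0.020 for A_52_P118756, 0.058 for A_52_P195135 and 0.011 for A_51_P205042, which was at 0.020 with no background subtraction. The cause was not tested. Median centring moved the median of all kept probes to -0.32 and processed signals to -0.13, and the split of means above and below 0 was 1604 and 6504 with median centring, against 3866 and 4242. The list medians ran over the alternatives from -0.69 (median centring) to 0.039 (processed signals) for the egg surface, from -0.11 (median centring) to 0.29 (processed signals) for calcium release, from -0.68 to -0.020 for the calcium response and from -0.35 to 0.032 for cortical granules, and the calcium response alone kept its sign among these lists. The dim spots of Folr4 and of Itpr1 A_52_P118756 limit their precision.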

Other observations

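Some other kept genes had values near those of Itpr1 on replicate 4, and these were chosen after their values were seen. H1f8, the linker histone of the oocyte, had log2 ratios of -0.04, 0.85, -0.17 and -3.60 on replicates 1 to 4. Erp44, a protein of the endoplasmic reticulum known to bind and inhibit the receptor that Itpr1 encodes, had 1.42, -0.11, 0.89 and -1.71. The treated channel of Erp44 was well above background on 3 of 4 arrays. On replicate 4 its value was near that of the dimmer Itpr1 probe, -1.78, and not near that of A_51_P269663, -3.60. A link between these genes and Itpr1 was not tested. Other genes of the calcium release list went both ways on replicate 4, among them Orai3 at 1.17 and Itpr3 at -1.13. Among the oocyte markers, Bmp15 had 1.71 and Zp3 0.54 on replicate 4.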
